A study of Paralichthys olivaceus with 24 samples.

Results

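Skeletal muscle of olive flounder (Paralichthys olivaceus), a flatfish whose body temperature follows the water, was compared between fish at 23 °C and fish at 12 °C. The comparison rests on 1 library of series C at each temperature. It takes in every gene of the deposited table whose mean over the 2 libraries was at least 1 RPKM, which was 3793 of 11646 genes. RPKM divides the reads of a gene by its length and by the library's total of mapped reads. Of the 3793 genes, 2625 carried a gene symbol.

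The labels describe fish aged 9 months with a body weight of about 308 g, 120 in number, with 15 fish in each of 8 treatment groups, all acclimated to 12 °C beforehand. The acute regime stepped the fish through warmer water at 3 h intervals. The chronic regime warmed the water by 3 °C per h and then held it for at least 20 h. The labels name series A and C without tying either letter to a regime, so the time at 23 °C is not known for this library. Neither the number of fish behind a library nor any pooling is stated, although the design text speaks of duplicates. Without a second library at either temperature, a difference below describes these 2 libraries, and no p-value or error is given.

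In fish muscle, warming within the tolerated range speeds metabolism and contraction and raises the load on protein folding. Heat shock proteins refold damaged proteins in the cytosol, while the endoplasmic reticulum has chaperones of its own for secreted proteins such as collagen. Muscle is also the body's main store of protein: the ubiquitin ligases of the atrogene programme, driven by FOXO factors and glucocorticoids, mark muscle proteins for breakdown, and glutamine and arginine enzymes handle the nitrogen that is released.

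The label of the tissue was checked against muscle genes. The fast myosin light chain gene mylpf stood at 25771 RPKM at 12 °C and 25861 at 23 °C, and the calcium buffer gene pvalb1 at 6441 and 4481. Only 7 of 28 muscle marker genes known to RefSeq are in the table, since it holds only genes that the authors found at least 2-fold apart from 12 °C at some temperature. These 7 rows summed to 48166 RPKM at 12 °C, 20875 at 18 °C and 30803 at 23 °C. Of them, 1 was listed at 0 at 18 °C and 1 at 23 °C, the latter being atp2a1l, described below. The sarcomere list below, which includes mylpf, summed to 27090 RPKM at 12 °C but 1770 at 18 °C. The 18 °C library thus held mylpf far below its 12 °C level. The 48 liver marker rows summed to 69.2 RPKM at 12 °C and 80.0 at 23 °C, against 5623 at 18 °C and 614 at 28 °C. The most abundant liver transcripts that met the minimum, apoa4 and apoa2 of plasma lipoproteins, went from 14.0 to 18.3 RPKM and from 9.67 to 10.5 RPKM. Of 17 liver genes that met it, 1 was at least 2-fold higher, the peptide hormone gene leap2 at 1.56 and 4.65 RPKM. The 6 exocrine pancreas rows summed to 10.5 RPKM at 12 °C and 15.1 at 23 °C, against 178 at 18 °C. Both libraries compared here thus lay low in transcripts of these organs. None of the 7 blood cell marker rows reached the minimum, and they summed to 1.31 and 0.552 RPKM. Of fat, skin and nerve markers, 5 met the minimum and 0 were 2-fold apart, the myelin gene mbpa going from 44.3 to 31.4 RPKM and the keratin gene krt5 from 7.51 to 3.52 RPKM. The steps between low values gave a read depth of the 23 °C library 0.981 times that of the 12 °C library. The search covered only near-equal depths, so a larger difference could not have been found.

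A gene was called higher or lower when log2((RPKM at 23 °C + 1)/(RPKM at 12 °C + 1)) was at least 1 in size, a 2-fold difference. The added 1 RPKM understates the change of low genes. Called higher were 113 genes, which is 2.98% of the 3793, and called lower were 408, which is 10.8%. The median log2 fold of all 3793 genes was -0.33, so most genes read lower at 23 °C. The larger direction turned with the scaling of the libraries. When the 23 °C library was multiplied by the constant of 1.27 that the authors' deposited table contains for this pair, 231 genes were higher and 202 lower. Scaling by median ratios gave 239 higher and 195 lower, and the same scaling over genes with a mean of at least 1 RPKM gave 324 and 148. As deposited, 21.7% of the called genes were higher, against 53.3%, 55.1% and 68.6% under these 3 scalings. The median log2 fold of all genes became -0.061, -0.056 and 0.048 under them, in the same order. The minimum of 1 RPKM was applied again after each rescaling, which left 3978, 3982 and 4059 genes, in the same order. For the original 3793 genes, the median under median ratio scaling was -0.07. A rescaled list median below is to be read beside the value of its scaling, not beside -0.33. It can take in genes beyond the numbered members of the list. The 3 rescalings all multiply the 23 °C library upward, so no higher call could be lost under them, and the 113 higher genes under each of the 4 scalings (2.98%) are no sign of stability. Genes lower under each of the 4 numbered 148 (3.9%). A lower gene outside these 148 is marked below as not held under all scalings.

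**Figure D1:**
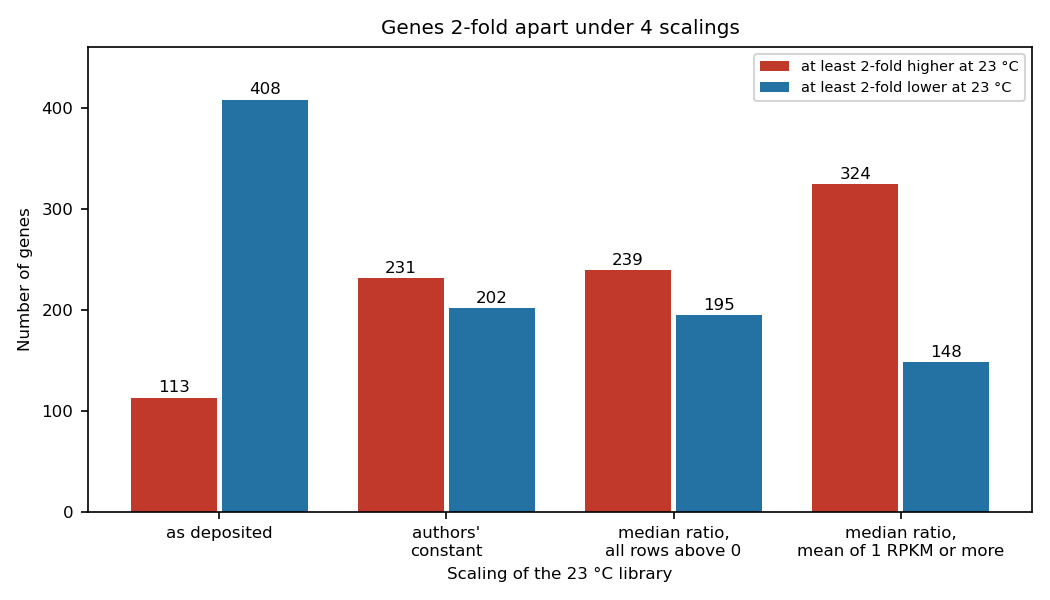
Number of genes at least 2-fold higher (red) or lower (blue) at 23 °C than at 12 °C under 4 scalings of the 23 °C library, 1 library a side. As deposited, lower genes outnumber higher ones by 408 to 113, and under the other 3 scalings higher genes are the more numerous.

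**Figure D2:**
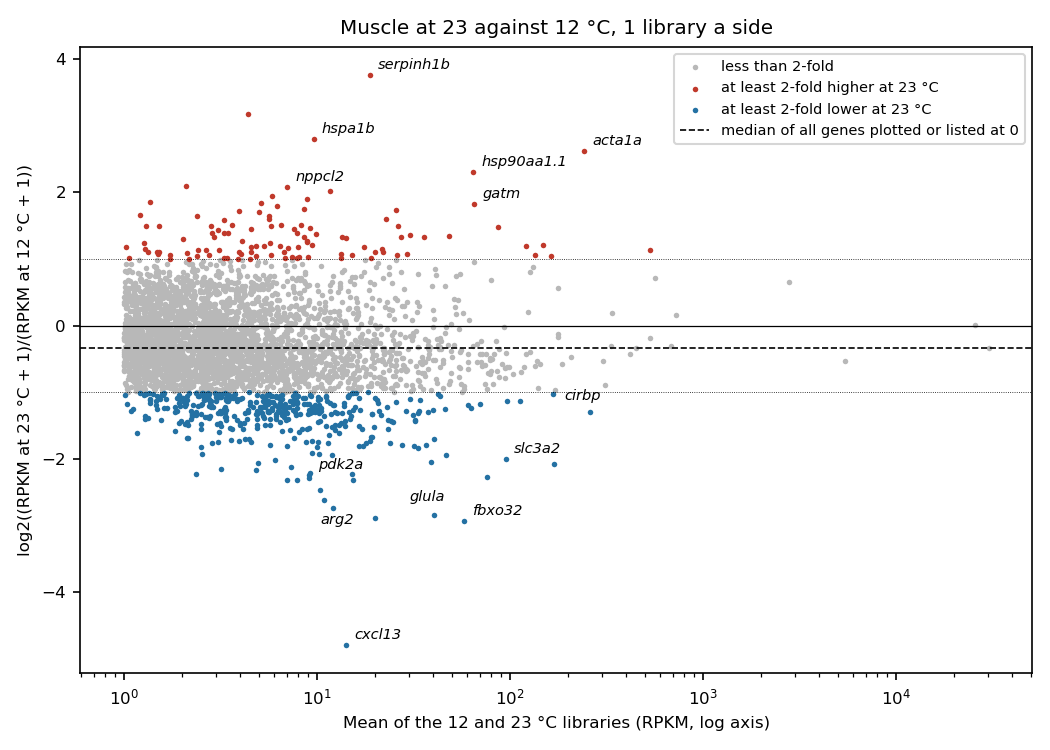
Log2 fold at 23 against 12 °C (vertical axis) by mean RPKM of the 2 libraries (horizontal log axis), 1 point a gene, without the 7 genes listed at 0 in 1 library. The dashed line is the median of -0.33, and the lowest point is cxcl13 at -4.79.

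Called genes made up a smaller share at low levels. Between 1 and 2 RPKM, 1.36% of 1176 genes were higher and 3.74% lower. Between 5 and 20 RPKM these shares were 4.4% and 18.6% of 977 genes. Many calls lay close to the threshold: 28 of the 113 higher genes were within 0.1 log2 units above it and another 29 genes within 0.1 below it, and on the lower side the numbers were 97 and 133. The gene nearest inside on the higher side was the collagen prolyl hydroxylase gene p4ha1 with 2.69 RPKM at 12 °C and 6.38 at 23 °C.

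Several folding factors were among the higher genes. Of the genes above 0 in both libraries, the largest fold belonged to serpinh1b, which encodes the collagen chaperone of the endoplasmic reticulum. It measured 1.74 RPKM at 12 °C, 7.73 at 18 °C, 36.0 at 23 °C and 169 at 28 °C, a log2 fold of 3.75 at 23 °C. The order of the libraries followed the temperature. Of 14 collagen folding genes that met the minimum, 6 were higher and 1 was lower, beside 2.98% and 10.8% of all genes. The median log2 fold of the 14 was 0.89, against -0.33 for all genes. These 14 are of 16 rows in the table and of 24 genes in RefSeq. The prolyl hydroxylase subunit gene p4ha2, whose enzyme makes the hydroxyproline that stabilises the collagen helix, went from 1.82 to 9.88 RPKM (1.95). The lysyl hydroxylase gene plod3 was at 4.58 and 10.4 RPKM, a log2 fold of 1.03. The prolyl isomerase gene fkbp9 went from 1.39 to 5.27 RPKM and its relative fkbp7 from 2.56 to 7.11 RPKM, and p4ha1, given above, is the remaining higher member. The one lower member was p3h2, a prolyl 3-hydroxylase, at 2.99 and 0.866 RPKM, a call not held under all scalings.

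Genes of the matrix, its proteases and cell-surface proteoglycans read lower or similar. Of 15 extracellular matrix genes that met the minimum, 0 were higher and 4 lower, beside 2.98% and 10.8% of all genes. The median of the 15 was -0.69. That median became -0.32 under median ratio scaling over genes with a mean of at least 1 RPKM. These 15 are of 25 rows in the table and of 64 genes in RefSeq. Periostin, postnb, a matrix protein of connective tissue, was at 57.4 RPKM at 12 °C, 52.1 at 18 °C, 27.8 at 23 °C and 12.6 at 28 °C (log2 fold -1.02 at 23 °C, called only without rescaling). The collagenase gene mmp13a went from 3.55 to 0.63 RPKM, and the gelatinase gene mmp9 from 1.82 to 0.252 RPKM. The cell-surface proteoglycan gene gpc6 was at 7.68 and 2.10 RPKM, and these calls held under all 4 scalings.

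Most heat shock genes lay within 2-fold at 23 °C, and the called ones were mainly higher. Among 34 listed heat shock and cochaperone genes above the minimum, 5 were higher, 1 was lower and 28 lay within 2-fold. Of all genes, 2.98% were higher and 10.8% lower. The median of the list was 0.28, against -0.33 for all genes. The lower one is fkbp5, given below with the glucocorticoid genes. The inducible hsp70 gene hspa1b measured 1.68 RPKM at 12 °C, 8.33 at 18 °C, 17.6 at 23 °C and 5326 at 28 °C. Its log2 fold of 2.79 at 23 °C compares with a far higher level in the 28 °C library. The hsp90 gene hsp90aa1.1 went from 21.1 to 108 RPKM (2.30), its neighbour in name hsp90aa1.2 from 1.41 to 5.89 RPKM, and the hsp110-family gene hspa4a from 3.84 to 12.8 RPKM (1.51). The mitochondrial co-chaperonin gene hspe1 was at 8.29 and 18.6 RPKM (1.08), while its partner hspd1 was at 9.79 and 12.3 RPKM. How reads were shared among near-identical hsp70 or hsp90 copies is not stated, so these levels are uncertain.

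A pair of cochaperone genes with high levels at 28 °C read lower at 23 °C than at 12 °C. The hsp70 exchange factor gene bag3 measured 20.9 RPKM at 12 °C, 13.4 at 18 °C, 11.5 at 23 °C and 1241 at 28 °C. The hsp40 gene dnajb1b measured 5.89, 5.06, 3.80 and 422 RPKM in the same order. Their log2 folds at 23 °C were -0.80 and -0.52, against a median of -0.33 for all genes, and were not called. That of dnajb1b lay between the quartiles of all genes, -0.68 and 0.10. In the endoplasmic reticulum list, 2 of 24 genes were higher and 0 lower, beside 2.98% and 10.8% of all genes. The list median was 0.30, against -0.33 for all genes. The lumenal chaperone gene hspa5 stood at 4.45 and 14.0 RPKM (1.46), and the disulfide isomerase gene pdia6 at 4.46 and 12.7 RPKM (1.33).

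**Figure D3:**
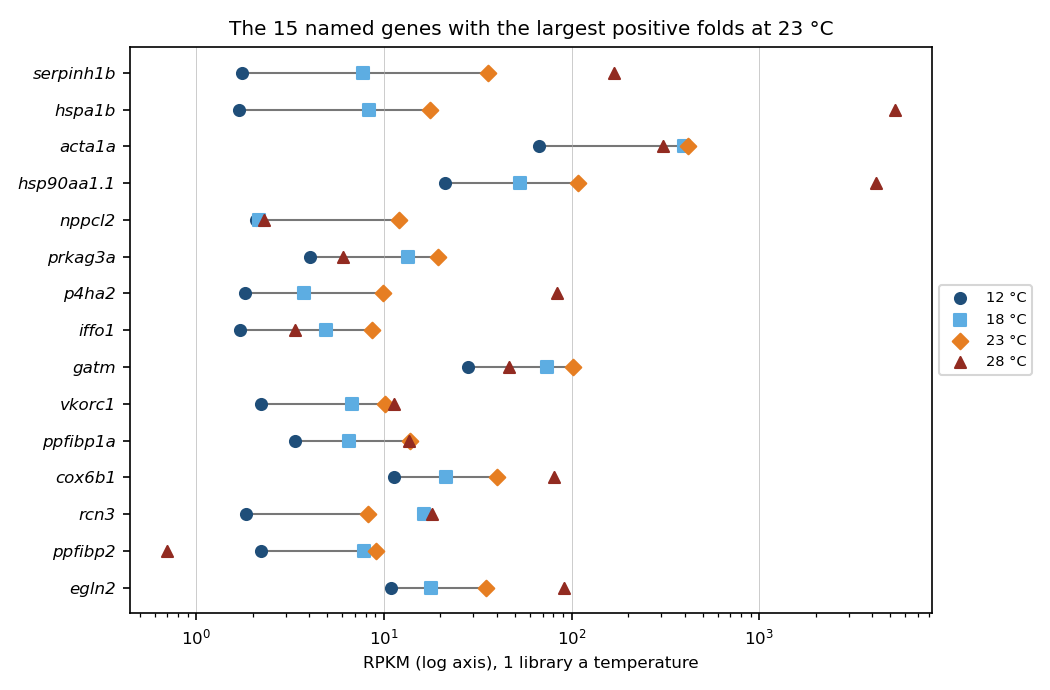
RPKM (log axis) at 12, 18, 23 and 28 °C, 1 library each, of the 15 symbol-bearing genes averaging 5 RPKM or more that had the largest positive log2 folds. Grey lines join 12 and 23 °C. The chaperone gene hspa1b runs on to 5326 RPKM at 28 °C, while nppcl2, prkag3a, acta1a, gatm, iffo1, ppfibp1a and ppfibp2 stand highest at 23 °C.

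Several genes of creatine and mitochondrial energy supply were also higher. The creatine system carries phosphate from mitochondria to the myofibrils. Its synthesis gene gatm measured 28.2 RPKM at 12 °C, 73.7 at 18 °C, 102 at 23 °C and 46.1 at 28 °C, a log2 fold of 1.82 at 23 °C. The creatine transporter gene slc6a8 went from 13.3 to 39.3 RPKM (1.50), and the mitochondrial creatine kinase gene ckmt2a from 73.6 to 170 RPKM (1.20). Synthesis, uptake and phosphorylation of creatine were thus each represented among the higher genes. The cytochrome oxidase subunit gene cox6b1 measured 11.3 and 40.1 RPKM (1.74), and the ADP/ATP carrier gene slc25a5 15.1 and 39.4 RPKM (1.32). In the list of mitochondrial respiration, which also holds creatine genes, 5 of 9 genes above the minimum were higher and 0 lower. Of all genes, 2.98% were higher and 10.8% lower. The median of the 9 was 1.20 and became 0.32 over all 13 rows with no minimum. The 5 higher members are gatm, slc6a8, ckmt2a, cox6b1 and slc25a5, so that 3 of them serve the creatine system and 1 is a respiratory chain subunit. The list has 104 genes in RefSeq and 13 rows in the selected table, so the median describes those members only.

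Fuel use genes moved in both directions. The gene pdk2a, whose kinase switches off pyruvate dehydrogenase, measured 15.8 RPKM at 12 °C, 7.91 at 18 °C, 2.54 at 23 °C and 1.72 at 28 °C (log2 fold -2.24 at 23 °C). The gene pfkfb4b, whose enzyme sets the level of a strong activator of glycolysis, measured 7.72, 9.71, 20.7 and 3.49 RPKM (1.32 at 23 °C). The glycogen-targeting phosphatase subunit gene ppp1r3ab went from 1.46 to 5.47 RPKM. Of 20 glycolysis and glycogen genes, 2 were higher and 1 lower, with a median of 0.17. The AMP-activated kinase subunit gene prkag3a, a form typical of fast muscle, measured 4.06, 13.5, 19.4 and 6.02 RPKM (2.02 at 23 °C). Among 19 lipid genes, dgat2, an enzyme of triglyceride synthesis, was higher at 1.15 and 5.45 RPKM. The lipin gene lpin1a was lower at 6.40 and 1.63 RPKM, as was the lipid droplet coat gene plin3 at 8.05 and 2.53 RPKM, the latter not under all scalings. Of the 19 lipid genes, 1 was thus higher and 2 lower, 1 of these under all scalings. Among all genes 2.98% were higher, 10.8% lower and 3.9% lower under all scalings. The lower lipid genes were a share near that of all genes.

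Contractile genes were called in both directions. The skeletal actin gene acta1a measured 66.9 RPKM at 12 °C and 395, 417 and 309 RPKM at 18, 23 and 28 °C, so that 12 °C stood alone as the low library. Its log2 fold at 23 °C was 2.62. The cardiac-type actin gene actc1a went from 106 to 220 RPKM (1.04), the tropomyosin gene tpm3 from 13.7 to 30.6 RPKM (1.11), and the slow or cardiac myosin light chain gene myl2a from 4.83 to 12.9 RPKM (1.26). The fast light chain mylpf differed by a log2 fold of only 0.01. Reads of near-identical actin genes may have been shared, so the split between them is uncertain. Of 32 sarcomere genes that met the minimum, 5 were higher and 4 lower, with a median of -0.10 as deposited that became positive, at 0.12 and 0.11, under median ratio scaling and the authors' constant. The other higher member was ankrd1, a titin-binding stress gene, at 3.40 and 8.15 RPKM. The Z-disc genes mypn and synpo2la were lower at 8.40 and 2.34 RPKM and at 89.3 and 37.5 RPKM, the latter not under all scalings. The calls of mylk4a and obsl1b, also lower, did not hold under all scalings. Of the 32, 4 were thus lower and 1 lower under all scalings, shares near the 10.8% and 3.9% of all genes. The 5 higher members compare with 2.98% of all genes.

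Some excitation and calcium genes were lower as deposited, most of these calls not held under all scalings. Of 22 members, 0 were higher and 5 were lower, 2 of them under all scalings, with a median of -0.37 beside -0.33 for all genes. The median became 0.06 under median ratio scaling over genes with a mean of at least 1 RPKM. The excitation coupling gene stac3 (the row LOC109630658, since another row shares the symbol) measured 85.4 RPKM at 12 °C and 36.8 at 23 °C. The calcium channel subunit gene cacng1 measured 47.3 and 21.3 RPKM, and the acetylcholine receptor subunit gene chrnd 42.0 and 19.1 RPKM. These 3 had log2 folds of -1.19, -1.12 and -1.10 and were called only without rescaling. The sodium-calcium exchanger gene slc8a3 was lower under all 4 scalings, at 6.78 and 1.94 RPKM. The fifth lower member is atp2a1l, a calcium pump gene of the sarcoplasmic reticulum. It is listed at 0 at 23 °C against 15859, 15287 and 14940 RPKM at 12, 18 and 28 °C. An exact 0 in such a gene can be a failed estimate, so no fold is given. Its paralog atp2a1 measured 17.0 RPKM at 12 °C and 34.7 at 23 °C. With atp2a1l left aside, slc8a3 alone of the 22 was lower under all scalings, a share near the 3.9% of all genes.

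Genes of protein breakdown were among the lower ones. Atrogin-1, the muscle ubiquitin ligase encoded by fbxo32, measured 103 RPKM at 12 °C, 16.2 at 18 °C, 12.7 at 23 °C and 17.2 at 28 °C, a log2 fold of -2.93 at 23 °C. The 12 °C library stood apart from the other 3. For a related F-box gene, fbxo30a, the 12 °C library was also the highest, at 10.3 RPKM against 2.43, 1.82 and 2.24 RPKM at 18, 23 and 28 °C. The autophagy gene atg9b went from 37.5 to 10.4 RPKM (-1.75), and foxo3b, a transcription factor that switches on atrophy genes in mammals, from 15.7 to 5.21 RPKM (-1.42). The median of the 24 breakdown and autophagy genes that met the minimum was -0.64. For the same 24 genes it was -0.31 under median ratio scaling. With the minimum applied again, median ratio scaling over genes with a mean of at least 1 RPKM gave a list median of -0.06. That value does not cover the same 24 genes, and the median of all genes there was 0.048. Among all genes 2.98% were higher, 10.8% lower and 3.9% lower under all scalings. Of the 24, 0 were higher and 6 lower, 4 of them under all scalings. The others were the calpain gene capn1a, which went from 19.8 to 7.98 RPKM, and the autophagy gene atg2a, from 11.3 to 4.56 RPKM, neither held under all scalings. Of 4 proteasome genes in the table, psmd8 went from 12.7 to 3.55 RPKM and psme4 from 26.1 to 8.31 RPKM, both called lower. The median of the 4 was -1.03 and became -0.57 under that same scaling over genes with a mean of at least 1 RPKM. RefSeq has 40 genes of that list, so the table holds a small part of it.

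Several amino acid genes were lower. Of 21 that met the minimum, 8 were lower, 6 of them under all scalings, and 0 higher. Among all genes 10.8% were lower, 3.9% under all scalings, and 2.98% higher. The median of the 21 was -0.59. That median became -0.17 under median ratio scaling over genes with a mean of at least 1 RPKM. The arginase gene arg2, which splits arginine into ornithine and urea, measured 36.0 RPKM at 12 °C, 7.72 at 18 °C, 4.01 at 23 °C and 32.0 at 28 °C (log2 fold -2.89 at 23 °C). Its level at 28 °C was thus near that at 12 °C. Glutamine synthetase, encoded by glula, measured 72.1, 20.3, 9.20 and 14.6 RPKM (-2.84), and the glutaminase gene gls2, for the reverse step, 9.48, 8.05, 2.04 and 0.84 RPKM (-1.79). Both subunits of a transporter for large neutral amino acids were lower. The light chain gene slc7a5 measured 18.3, 4.55, 2.48 and 1.50 RPKM (-2.47 at 23 °C), and the heavy chain gene slc3a2 measured 154, 99.5, 37.7 and 26.1 RPKM (-2.00). The alternative light chain gene slc7a8a was at 31.3 and 11.8 RPKM, a call not held under all scalings. The small neutral amino acid transporter gene slc38a2 was at 7.07 and 1.47 RPKM, and the second glutaminase gene gls2b at 7.46 and 2.38 RPKM (not under all scalings). The taurine transporter gene slc6a6, outside the list, measured 26.4 RPKM at 12 °C and 4.54 at 23 °C (-2.31).

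**Figure D4:**
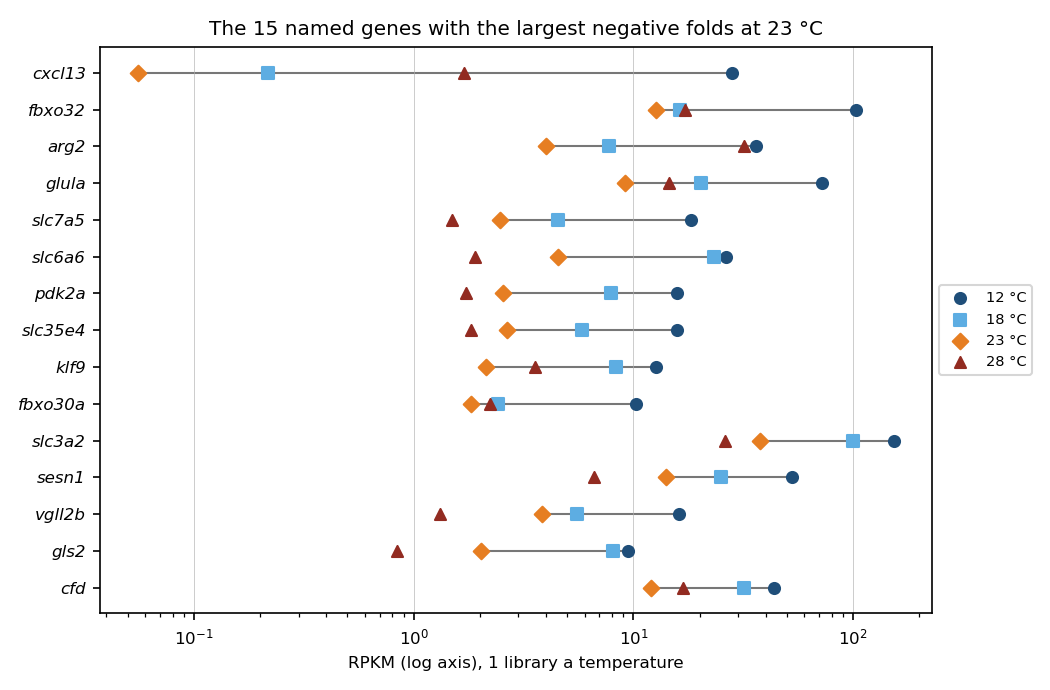
RPKM (log axis) at 12, 18, 23 and 28 °C, 1 library each, of the 15 symbol-bearing genes averaging 5 RPKM or more that had the largest negative log2 folds. Grey lines join 12 and 23 °C. For fbxo32 and fbxo30a the 12 °C library stands apart from the other 3, while slc6a6 and gls2 stay near their 12 °C level at 18 °C.

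Some targets of glucocorticoids were among the lower genes. Of 13 glucocorticoid response genes, 4 were lower and 0 higher, beside 10.8% and 2.98% of all genes. The median of the 13 was -0.64. For the same 13 it was -0.36 under median ratio scaling. With the minimum applied again, that scaling over genes with a mean of at least 1 RPKM gave a list median of -0.18. One of the 4 is glula. The others were the Krüppel-like factor gene klf9 at 12.6 and 2.13 RPKM (-2.12), the clock gene per1b at 6.66 and 1.61 RPKM, and the receptor co-chaperone gene fkbp5 at 47.2 and 17.1 RPKM (-1.41, not under all scalings). The 2 rows for the glucocorticoid receptor, nr3c1, were within 2-fold, at 3.27 and 2.12 RPKM and at 5.90 and 3.43 RPKM. Of 22 insulin and growth signalling genes, 4 were lower and 0 higher, beside 10.8% and 2.98% of all genes. The list median of -0.53 became -0.08 under median ratio scaling over genes with a mean of at least 1 RPKM. Only 1 of the 22 was lower under all scalings, a share near the 3.9% of all genes. The sestrin gene sesn1, a brake on the mTOR growth pathway in mammals, measured 52.7 RPKM at 12 °C, 25.1 at 18 °C, 14.1 at 23 °C and 6.62 at 28 °C (-1.83). The phosphoinositide kinase inhibitor gene pik3ip1 was at 20.6 and 9.72 RPKM, the kinase gene gsk3b at 4.04 and 1.47 RPKM, and the insulin receptor gene insrb at 2.14 and 0.567 RPKM. These 3 calls did not hold under all scalings.

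Muscle regulators and clock genes were lower in part. Of 24 muscle regulators, 5 were lower, 4 of them under all scalings, and 0 higher. Among all genes 10.8% were lower, 3.9% under all scalings, and 2.98% higher. The median of the 24 was -0.60. For the same 24 it was -0.33 under median ratio scaling. With the minimum applied again, that scaling over genes with a mean of at least 1 RPKM gave a list median of -0.13. The cofactor gene vgll2b measured 16.1 RPKM at 12 °C, 5.56 at 18 °C, 3.84 at 23 °C and 1.32 at 28 °C (-1.82). The muscle transcription factor gene mef2c went from 13.8 to 4.06 RPKM (-1.55) and the serum response factor gene srfb from 4.23 to 0.794 RPKM. Of 2 rows with the symbol mbnl1, a splicing regulator, 1 was lower at 29.7 and 8.64 RPKM (-1.67) and the other, LOC109644508, was at 58.6 and 42.2 RPKM. The last lower regulator was mef2d at 5.08 and 1.96 RPKM, not under all scalings. Of 17 clock genes, 7 were lower and 2 higher, beside 10.8% and 2.98% of all genes. The median of the 17 was -0.73, and -0.47 under median ratio scaling. With the minimum applied again, that scaling over genes with a mean of at least 1 RPKM gave a list median of -0.29. The repressor gene ciart measured 18.1 and 5.13 RPKM (-1.64) and the E4BP4 gene nfil3 7.54 and 2.23 RPKM, whereas the PAR-domain factor gene hlf measured 16.5 and 35.4 RPKM (1.06) and bmal2 2.54 and 6.58 RPKM. Besides per1b, lower members included cry-dash under all scalings (log2 fold -1.20), and rorca and per3 without rescaling only (both -1.04). Sampling hours are not given in the labels, so time of day and temperature cannot be told apart for the clock genes.

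RNA-binding genes showed both directions. The cold-inducible gene cirbp measured 226 RPKM at 12 °C, 189 at 18 °C, 111 at 23 °C and 91.2 at 28 °C, a log2 fold of -1.02 at 23 °C that was called only without rescaling. The splicing factor gene srsf5 went from 19.7 to 6.40 RPKM under all scalings. Calls not held under all of them were sfpq, from 22.2 to 8.03 RPKM, and ptbp1a, from 3.92 to 1.27 RPKM. A relative, srsf1a, was higher at 2.82 and 6.90 RPKM. In all, 1 of 17 cold-inducible and splicing genes was higher and 4 were lower, beside 2.98% and 10.8% of all genes. Under all scalings 1 was higher and 1 lower, a single gene each way, beside 2.98% and 3.9% of all genes. The median of the list was -0.02 as deposited and became 0.19 under median ratio scaling and under the authors' constant. Immediate early genes, which many stimuli induce within minutes, had 0 of 27 higher and 1 lower (mapk6 at 9.30 and 3.63 RPKM, not held under all scalings). Ribosomal and translation genes had 0 of 5 called in either direction, the most abundant being eif4a2 at 106 and 66.2 RPKM and eif3j at 25.3 and 31.4 RPKM. RefSeq has 122 genes of that list, so these 5 are a small part of it.

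Immune transcripts were lower in a subset. The B cell chemokine gene cxcl13 measured 28.2 RPKM at 12 °C, 0.218 at 18 °C, 0.0558 at 23 °C and 1.69 at 28 °C, a log2 fold of -4.79 at 23 °C. The 12 °C library alone held it at a high level. The B cell receptor gene cd79a measured 2.28, 0.199, 0.0765 and 6.21 RPKM from 12 to 28 °C, and its partner cd79b 3.71, 0.272, 0.779 and 6.05 RPKM, so both were highest at 28 °C. The iron hormone and antimicrobial peptide gene hamp was at 16.2 and 4.13 RPKM (-1.75), and the macrophage receptor gene marco at 3.71 and 0.834 RPKM, with the interferon response gene trim25 at 4.46 and 1.36 RPKM not held under all scalings. Of 16 immune genes that met the minimum, 6 were lower and 0 higher, beside 10.8% and 2.98% of all genes. The median of the 16 was -0.63, and -0.38 under median ratio scaling. With the minimum applied again, that scaling over genes with a mean of at least 1 RPKM gave a list median of 0.02. That last value does not cover the same 16 genes. The whole list of 33 rows summed to 107 RPKM at 12 °C and 42.1 at 23 °C. The myeloid genes mpeg1 and irf8 differed little, at 1.35 and 1.56 RPKM and at 1.66 and 1.54 RPKM. In tissue samples, fewer cells of a type and less RNA per cell cannot be told apart, and the part of immune cell content in these differences was not tested.

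**Figure D5:**
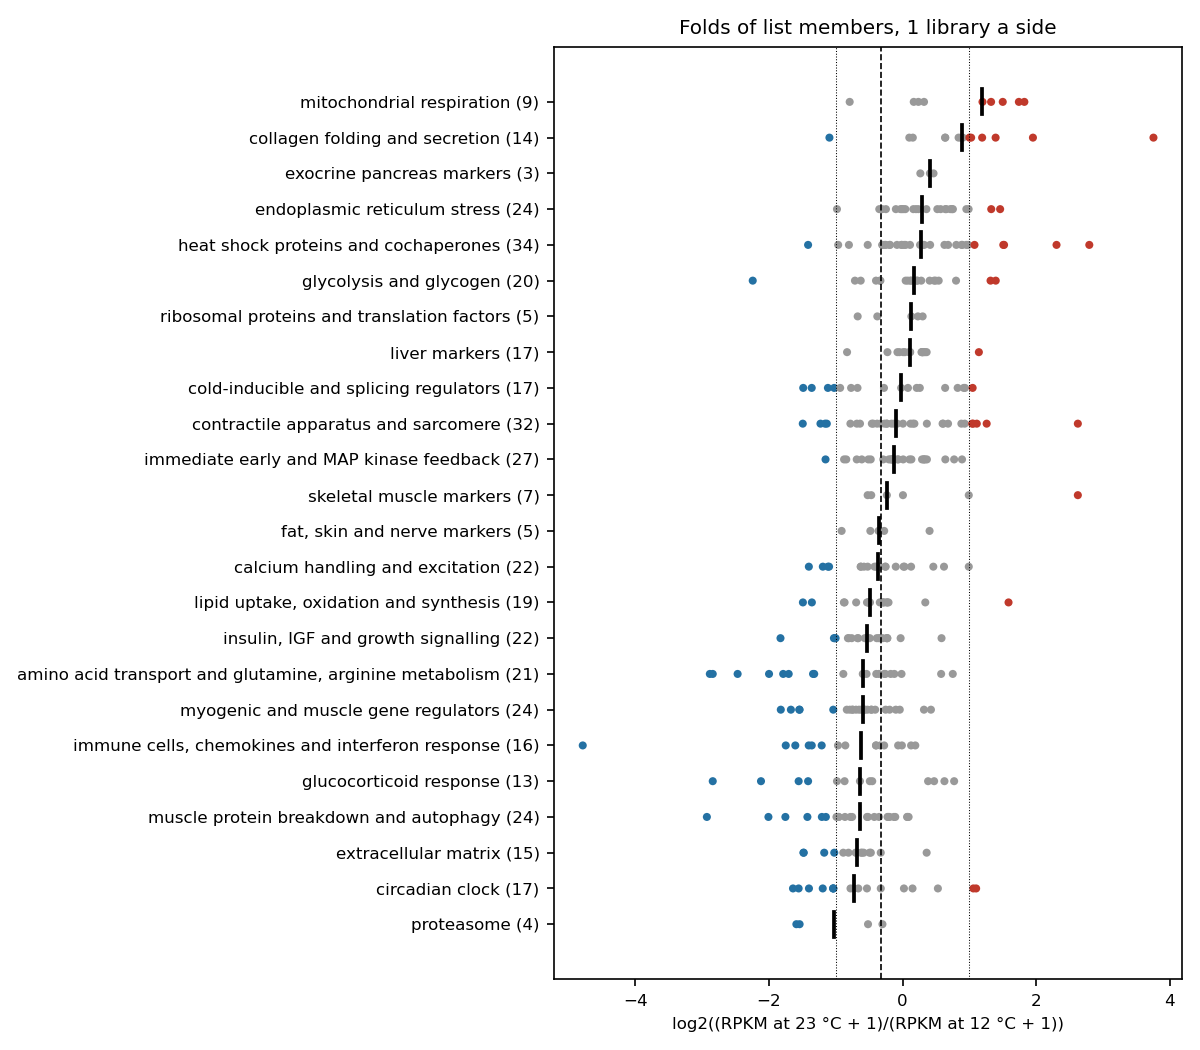
Log2 folds at 23 against 12 °C of the members of each gene list that met the minimum (numbers in brackets), 1 library a side, with genes listed at 0 not drawn. Black bars are list medians, the dashed line is the median of all genes at -0.33, and red and blue points are at least 2-fold higher or lower. The medians of the mitochondrial and collagen folding lists, at 1.20 and 0.89, lie furthest to the right. Medians of several other lists, such as endoplasmic reticulum stress at 0.30 and heat shock at 0.28, also lie right of the dashed line. The 8 lower amino acid genes lie at -1 or below, as the call requires.

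The authors' deposited table sorts genes into 7 clusters by their course over all 4 libraries. Of the 408 lower genes, 305 were in the authors' cluster 2, which held 1972 of all 3793 genes. Its members had median levels of 4.61, 3.58, 2.69 and 1.64 RPKM over the 4 temperatures. Among the 113 higher genes, 49 were in cluster 4, 35 in cluster 5 and 19 in cluster 6. These 3 clusters held 1231, 126 and 130 of all 3793 genes. Clusters 4, 5 and 6 differ in what follows at 28 °C: the medians at 23 and 28 °C were 2.74 and 9.46 RPKM in cluster 4, 3.65 and 3.69 RPKM in cluster 5, and 3.45 and 1.15 RPKM in cluster 6. The clusters were made from these same libraries, so the match is a description.

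Of the 889 symbol-bearing genes that averaged 5 RPKM or more with values above 0, 2 stood at least 2-fold above each of the other 3 muscle libraries at 23 °C, and 0 stood 2-fold below each of them. The natriuretic peptide gene nppcl2 measured 2.08 RPKM at 12 °C, 2.16 at 18 °C, 12.0 at 23 °C and 2.30 at 28 °C, a log2 fold of 2.07 against 12 °C. The other was pfkfb4b, described above with the fuel genes.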

How the data were processed

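The authors deposited 1 table of RPKM values per gene, per the file headers, for 4 of the 24 labelled samples (muscle of series C), and the other 20 samples were not analysed here. The submitters' processing notes list TopHat2 and Cufflinks. For tool versions, build and annotation the sources used here give nothing. The authors' comparison columns are headed log2, but in 11641 of 11646 rows the deposited value for 23 °C equals the natural log of the RPKM ratio (values floored at 0.01 RPKM) times a constant of 1.27, within 1e-05. All 11646 rows pass 2-fold in at least 1 of the authors' 3 comparisons, so shares are of a selected table. The authors' cluster numbers were used as deposited.

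Symbols came from the file (4120 rows) or, by gene ID, from the RefSeq table of assembly ASM2471397v2 (2788 rows), used for names only. Read numbers are not in the table, and absolute depth is unknown, so no counting interval is given. Folds, minimum and calls are as stated in the report, computed with Python 3.11.15, pandas 2.3.3 and NumPy 2.4.6, and were checked on altered copies of the real values with known folds. Median ratio scaling took, over genes above 0 in all 4 libraries, the median log2 ratio of a library to their geometric mean.

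Named genes were, above 5 RPKM on average and above 0 in both libraries, the 15 largest folds and 5 largest differences on each side, up to 4 called members a side of each list (else the 2 most abundant), and genes 2-fold apart from all other libraries. Other genes were named after their values were seen. Members and the 25 lists were chosen with earlier results of these data known. Separate genes that the rule for fish paralog suffixes caught were removed from the lists afterwards. Promoter sequences were not used here. One gene that the naming rule selects is not reported here.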

Additional observations from a re-analysis of the deposited data

How the results depend on the processing

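No paired analysis was possible because each temperature has 1 library. Against 113 higher and 408 lower genes, a pseudocount of 0.1 RPKM gave 210 and 754, and a minimum mean of 5 RPKM gave 64 and 228. Median ratio scaling gave 239 and 195, the same over genes with a mean of at least 1 RPKM (chosen after seeing the data) 324 and 148, and the authors' constant 231 and 202. The median log2 fold of -0.33 became -0.43 with the smaller pseudocount, -0.027 with no minimum, -0.47 with the 5 RPKM minimum, and -0.056, 0.048 and -0.061 under the 3 scalings in the order above. With no minimum, without liver, pancreas and blood markers, and without genes listed at 0, both counts stayed within 1.5 times. Of 70 named genes called, 58 kept the call under median ratio scaling, 55 under its variant and 58 under the authors' constant, where calls of higher genes could not be lost since all 3 raise the 23 °C library. None changed direction, but none could have. Each call is at least 2-fold, the rescalings multiply the 23 °C library by less than 2-fold, and the other settings cannot turn a sign. Whether the offset of the 23 °C library is technical was not tested. Depth and the single library a side limit every value.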

Other observations

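Several higher genes lie outside the lists and are given here. Both egln1 and egln2, which encode oxygen-sensing prolyl hydroxylases of the hypoxia pathway, were higher, with log2 folds of 1.35 and 1.59. The vitamin K reductase gene vkorc1 was at 2.22 and 10.2 RPKM, while rcn3 and calu, for calcium-binding proteins of the secretory pathway, went from 1.84 to 8.25 and from 2.32 to 9.02 RPKM. The glycine cleavage gene gldc went from 87.5 to 184 RPKM and the intermediate filament family gene iffo1 from 1.70 to 8.64 RPKM. The liprin-beta gene ppfibp1a measured 3.37, 13.8 and 13.6 RPKM at 12, 23 and 28 °C, and its relative ppfibp2 2.22, 9.10 and 0.696 RPKM, so that they parted at 28 °C. The small GTPase gene arf4 was at 0.0677 RPKM at 12 °C, 0.438 at 18 °C, 8.70 at 23 °C and 22.5 at 28 °C.

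Among lower genes outside the lists, the chromatin protein gene hmgb1a went from 97.2 to 42.6 RPKM (not under all scalings) and hmgb1b from 62.4 to 18.6 RPKM. The complement factor gene cfd went from 43.6 to 12.0 RPKM and the solute carrier gene slc35e4 from 15.9 to 2.65 RPKM. The unfoldase gene vcp was at 28.0, 17.0, 10.6 and 49.3 RPKM from 12 to 28 °C, highest at 28 °C and lowest at 23 °C, a call not held under all scalings. Of the called genes, 40 of the 113 higher and 156 of the 408 lower ones have no symbol. One of them, LOC109624975, was listed at 0 in the other 3 libraries and at 20.3 RPKM at 23 °C.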
